A study of Mus musculus with 6 samples.

Results

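The miR-15/16 family was followed in the myocardium of mice, which is the muscular wall of the heart, at 6 d and at 0 h after death. Its members were taken as the rows named miR-15a, miR-15b, miR-16, miR-195a, miR-195b, miR-322, miR-497a and miR-497b, both arms included. This gave 14 rows of the 984 mature miRNAs measured, since no row was named miR-195b. The labels give 3 libraries at a post-mortem interval of 6 d and 3 at 0 h, the interval being the time between death and sampling. They give the interval and the tissue alone, and the sources used here do not state strain, sex, age or how the bodies were kept. No label ties the libraries of 1 interval to different mice. A p-value here therefore sets a difference only against the spread of these samples, and that spread may be technical.

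A microRNA is cut from a hairpin precursor, and each side of the hairpin, the 5p and the 3p arm, can leave a mature strand. Bases 2 to 8 of the strand, the seed, direct the choice of target mRNAs, so strands with the same seed form a family. The miR-15/16 family represses cyclins, other cell cycle genes and the survival gene Bcl2. In the mouse heart miR-195a rises after birth and is tied to the end of cardiomyocyte division. miR-322, the mouse form of human miR-424, is made with miR-503 from a cluster on the X chromosome and acts in muscle differentiation. miR-16 is also abundant in red blood cells, and miR-16 is often used as a reference in qPCR.

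The 5p strands are printed because they carry the shared seed, which stands in capitals. Sequences are those of RefSeq on GRCm38.p6, written 5′ to 3′, and all 14 rows matched by name. The prefix mmu marks mouse and is left out in much of the text.
mmu-miR-16-5p: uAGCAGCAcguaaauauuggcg
mmu-miR-195a-5p: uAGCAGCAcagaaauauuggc
mmu-miR-15a-5p: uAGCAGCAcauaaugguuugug
mmu-miR-15b-5p: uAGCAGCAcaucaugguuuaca
mmu-miR-322-5p: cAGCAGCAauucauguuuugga
mmu-miR-497a-5p: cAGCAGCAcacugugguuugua
The 6 strands have 1 seed, and 10 mature miRNAs of the RefSeq table hold it, of which these 6 had a row in the files. Outside the seed they part. Counted from 1 at the 5′ end, miR-195a-5p matched miR-16-5p at 19 of 21 positions, with the substitutions G10A and U11G. miR-15a-5p matched it at 16 of 22, miR-15b-5p at 14, miR-322-5p at 12 and miR-497a-5p at 11. The sources used here do not say how reads that fit more than 1 row were counted.

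The 3p strands and miR-497b are printed because several of them moved apart from their 5p partners, and their bases 2 to 8 are again in capitals.
mmu-miR-16-1-3p: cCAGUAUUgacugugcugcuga
mmu-miR-16-2-3p: aCCAAUAUuauugugcugcuuu
mmu-miR-195a-3p: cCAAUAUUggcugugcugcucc
mmu-miR-15a-3p: cAGGCCAUacugugcugccuca
mmu-miR-15b-3p: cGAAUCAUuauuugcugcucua
mmu-miR-322-3p: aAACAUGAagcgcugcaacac
mmu-miR-497a-3p: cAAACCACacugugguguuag
mmu-miR-497b: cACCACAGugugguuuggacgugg
No 3p strand has the family seed, and no pair of them has the same bases 2 to 8. miR-497b is cut from the strand opposite to miR-497a and overlaps miR-497a-3p over 17 bases, and the sources used here do not say whether counting used the strand, so both rows are uncertain.

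The rows come from 4 places in the genome, given here on GRCm38.p6 as RefSeq places the mature strands. miR-15a-5p (chromosome 14, 61632075 to 61632096, minus strand) lies 117 bases from 1 copy of miR-16-5p (61631936 to 61631957), and both lie between exons of Dleu2, a non-coding transcript, in GENCODE M21. miR-15b-5p (chromosome 3, 69009775 to 69009796, plus strand) lies 121 bases from the other copy of miR-16-5p (69009918 to 69009939), and both lie between exons of Smc4, which encodes a condensin subunit. miR-497a-5p (chromosome 11, 70234730 to 70234751, plus strand) lies 310 bases from miR-195a-5p (70235062 to 70235082). miR-322-5p (chromosome X, 53054306 to 53054327, minus strand) lies 256 bases from miR-503-5p. For these last pairs GENCODE M21 has no other gene over the strands. Because both copies of miR-16-5p have 1 sequence, its row cannot separate the loci. miR-16-1-3p reports the chromosome 14 copy alone and miR-16-2-3p the chromosome 3 copy alone. How reads that fit both copies of miR-16-5p were counted is not given, so its level beside rows of 1 locus is uncertain.

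Depth, counted over the 984 miRNAs, was 617069 to 1889594 reads at 6 d and 4468547 to 7906557 at 0 h, so 6 d values rest on fewer reads. Levels are given as normalised CPM, reads per 1000000 scaled by a further factor per library. The factors are those of the authors' deposited values, except for 0 h replicate 1, deposited as raw counts, whose factor was derived. A count of 3 reads, taken as the floor, is worth 1.91 to 3.97 CPM at 6 d and 0.463 to 0.730 at 0 h. Such floors cover counting error only. Each level is a part of its library's miRNA reads, so changes are relative, and fewer cells of a type and less RNA per cell cannot be told apart. The cardiac muscle markers miR-1a-3p, miR-133a-3p, miR-208a-3p, miR-208b-3p and miR-499-5p, which fit the labelled tissue, were read in all libraries, and limma called 1 of them higher and 2 lower at 6 d, where 16% of all 470 tested miRNAs were called higher and 21.9% lower. They summed to between 113393 and 535914 CPM at 6 d and between 256919 and 491616 at 0 h.

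The family held a larger part of the miRNA reads at 6 d, nearly all of it through miR-16-5p, and the rows that rose were miR-16-5p and those of the miR-15b/16-2 locus. Its 14 rows held 0.386%, 0.398% and 0.354% of all miRNA reads in the 6 d libraries, against 0.143%, 0.153% and 0.0896% in the 0 h libraries. The groups did not overlap, and the exact two-sided permutation p was 0.1, the smallest that 3 against 3 libraries allow (adjusted p = 0.175 over 7 shares). These shares leave out the further factor per library, which was 1.80 for 6 d replicate 3 and 0.760 for 0 h replicate 2. On the normalised CPM scale, which divides by it, the family's sum in 6 d replicate 3 lay just below that in 0 h replicate 2. The groups thus overlapped on that scale. Without miR-16-5p, a sum added after the values were seen, the other 13 rows held 0.0704%, 0.0649% and 0.0933% at 6 d, against 0.0648%, 0.0612% and 0.0628% at 0 h. The lowest 6 d value of this sum barely exceeded the highest 0 h value, and the mean difference was 0.0133 percentage points, against 0.251 with miR-16-5p. On the normalised CPM scale the groups of this sum overlapped and its mean was lower at 6 d, so its small rise depends on the scale. Of the 13 rows tested, 4 rose and 2 fell with limma on log2(CPM + 1) at an adjusted p under 0.05. The rows that rose were miR-16-5p, miR-15b-5p, miR-15b-3p and miR-16-2-3p. Those that fell were miR-195a-3p and miR-322-3p. In the family 30.8% of the tested rows rose and 15.4% fell, where 37.9% of all 470 tested miRNAs were called, 16% higher and 21.9% lower. The same 6 rows, 46.2% of 13, had groups that did not overlap, where 50.6% of all tested miRNAs did, 19.8% higher and 30.9% lower. The median log2 fold change was 0.60 over the family and -0.33 over all tested miRNAs. Both medians moved with the method, to 0.97 over the family and 0.02 over all with library totals alone. With DESeq2 they were 0.97 over the 13 family rows and 0.52 over all 984 miRNAs fitted. DESeq2 tested only 488 of these, so its median over all includes many rows with few reads. Without 6 d replicate 1 the family's median was 0.18 and that over all was -0.45. The edgeR test on recovered reads called 5 of 11 rows higher and 2 lower, where it called 43% of 363 miRNAs, 22.3% higher and 20.7% lower.

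**Figure D1:**
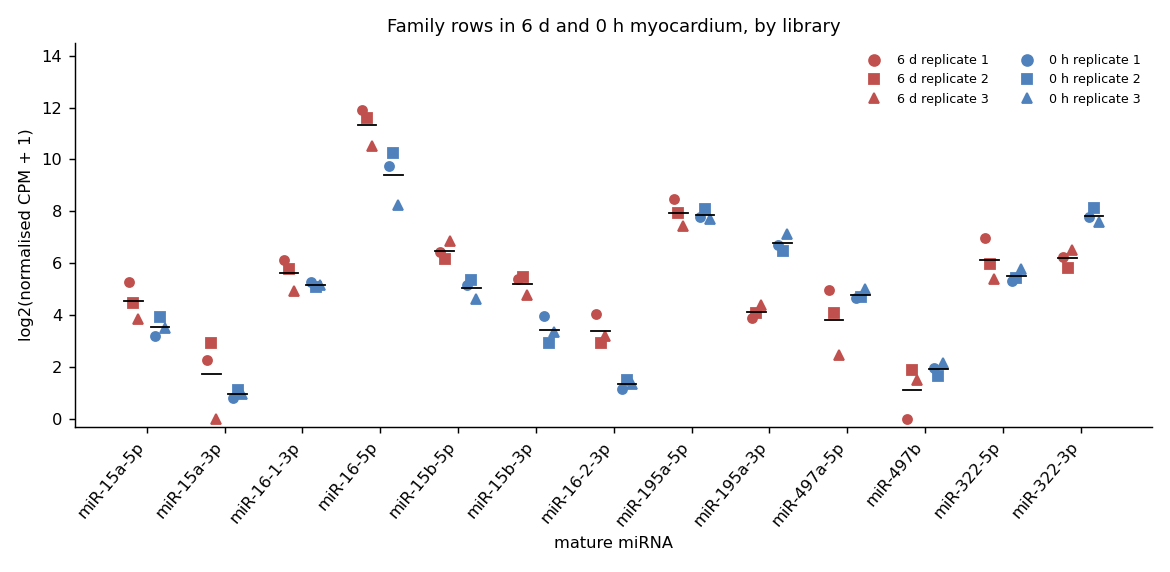
Level of each tested family row on the log2(normalised CPM + 1) scale, with 1 point per library (red, 6 d; blue, 0 h) and a black line at each group's mean of 3. miR-16-5p stands far above the other rows in each library but 0 h replicate 3, where it is closer to miR-195a-5p (302 against 208 CPM), and miR-195a-3p and miR-322-3p are the rows whose 6 d points all lie below their 0 h points.

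mmu-miR-16-5p, the most abundant member, had 3792, 3088 and 1451 CPM at 6 d, against 848, 1205 and 302 CPM at 0 h. Each 6 d library lay above each 0 h library; 6 d replicate 3 was near 0 h replicate 2. The mean was 2777 ± 1201 CPM at 6 d and 785 ± 455 at 0 h (SD, n = 3 each), which placed the row 27th of 984 by mean level at 6 d and 60th at 0 h. Its log2 fold change was 1.93 ± 0.55 (SE, limma adjusted p = 0.022). The call was lost without 0 h replicate 3, where the log2 fold change was 1.35 (limma adjusted p = 0.052). It was also lost without 6 d replicate 1, at 1.65 (0.063), and without 6 d replicate 2, at 1.79 (0.074). Over 16 alternatives its adjusted p ran between 0.00024 and 0.074, with 13 of them under 0.05. Its log2 fold change was above 0 in all 16.

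The rows made only by the miR-15b/16-2 locus all rose. mmu-miR-15b-5p had 84.7, 71.5 and 114 CPM at 6 d, against 34.8, 39.6 and 23.3 CPM at 0 h. The lowest 6 d library stood well above the highest 0 h library, and the log2 fold change was 1.44 ± 0.36 (SE, n = 3 each, limma adjusted p = 0.011). Its partner miR-15b-3p had 40.7, 43.7 and 26.2 CPM at 6 d, against 14.6, 6.65 and 9.11 CPM at 0 h. The groups were again apart, and the log2 fold change was 1.80 ± 0.42 (SE, n = 3 each, limma adjusted p = 0.0088). Both rows of miR-15b passed the threshold in all 16 alternatives.

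miR-16-2-3p, the passenger strand of the chromosome 3 copy of miR-16, had 15.3, 6.62 and 8.12 CPM at 6 d, against 1.22, 1.83 and 1.54 CPM at 0 h. These values rest on 24, 5 and 9 reads at 6 d, against 5, 11 and 10 reads at 0 h. Read numbers were alike at both intervals while the totals of the 6 d libraries were smaller. The log2 fold change was 2.05 ± 0.44 (SE, n = 3 each, limma adjusted p = 0.0062). After thinning each library to 617069 reads it was 2.01 and no longer called (adjusted p = 0.063, over 16 alternatives between 0.00012 and 0.063). Summed over the 3 rows that only this locus makes, the level was 137 ± 13.5 CPM at 6 d and 44.2 ± 8.97 at 0 h (SD, n = 3 each).

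No row made only by the miR-15a/16-1 locus passed the threshold. mmu-miR-15a-5p had 38.2, 21.2 and 13.5 CPM at 6 d, against 8.03, 14.1 and 10.3 CPM at 0 h. 6 d replicate 3 fell below 0 h replicate 2, so the groups overlapped, and the log2 fold change was 1.01 with a 95% interval of -0.02 to 2.04 (limma adjusted p = 0.11). Its adjusted p ran between 0.020 and 0.29 over 16 alternatives, 5 of which called it, among them edgeR (log2 fold change 1.29, edgeR adjusted p = 0.047) and library totals alone (1.43, limma adjusted p = 0.036). miR-16-1-3p, the passenger strand of the chromosome 14 copy, had 69.4, 54.3 and 29.8 CPM at 6 d, against 37.7, 32.6 and 35.2 CPM at 0 h. The 6 d libraries lay on either side of the narrow 0 h range, and the log2 fold change of 0.45 was not called (95% interval -0.42 to 1.32, limma adjusted p = 0.39). miR-15a-3p had only 6, 5 and 0 reads at 6 d and 3, 7 and 6 at 0 h, and was not called (log2 fold change 0.78, limma adjusted p = 0.39). Without 6 d replicate 3, which had none of these reads, it was called (log2 fold change 1.65, limma adjusted p = 0.012, over its 10 alternatives between 0.012 and 0.56). The 3 rows summed to 78.9 ± 34.1 CPM at 6 d and 47.0 ± 0.822 at 0 h (SD, n = 3 each).

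The loci could be set against each other by their passenger strands, whose ratio does not depend on a library's scale. There were 0.220, 0.122 and 0.273 reads of miR-16-2-3p per read of miR-16-1-3p at 6 d, against 0.0323, 0.0561 and 0.0439 at 0 h. With 1 read added to each row the log2 ratio rose by 2.14 ± 0.51 (SE, n = 3 each, limma adjusted p = 0.014 over 119 ratios). It was not called after thinning (1.13, adjusted p = 0.20), where the 0 h libraries hold few reads of miR-16-2-3p, nor without 0 h replicate 1 (1.97, adjusted p = 0.063), and over 9 alternatives its adjusted p ran between 0.011 and 0.20. The 5p strands of the loci gave no such separation. There were 2.22, 3.38 and 8.40 reads of miR-15b-5p per read of miR-15a-5p at 6 d, against 4.33, 2.8 and 2.25 at 0 h, with overlapping groups (exact two-sided permutation p = 0.7 and adjusted p = 0.7 over 10 ratios).

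**Figure D2:**
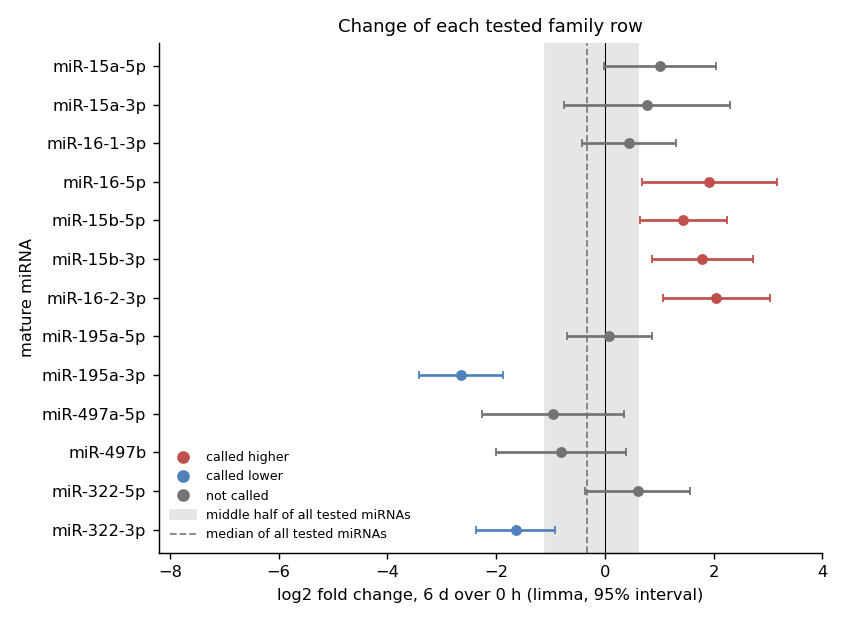
Log2 fold change of 6 d over 0 h for each tested family row, with its 95% interval from limma (3 libraries each). The grey band spans the middle quartiles of all 470 tested miRNAs (-1.11 to 0.62) and the dashed line is their median of -0.33, and the intervals of miR-16-5p and the 3 rows of the miR-15b/16-2 locus lie wholly right of the band while the points of miR-195a-3p and miR-322-3p lie left of it.

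At the miR-195a and miR-497a locus neither 5p strand was called while the 3p strand of miR-195a fell. mmu-miR-195a-5p had 351.3, 246 and 171 CPM at 6 d, against 221, 272 and 208 CPM at 0 h. The 6 d libraries spanned the whole 0 h range, and the log2 fold change was 0.08 with a 95% interval of -0.70 to 0.86 (limma adjusted p = 0.87). miR-195a-3p had 14.0, 15.9 and 19.9 CPM at 6 d, against 103, 87.8 and 138.5 CPM at 0 h. The highest 6 d library was far below the lowest 0 h library. The log2 fold change of miR-195a-3p was -2.64 ± 0.35 (SE, n = 3 each, limma adjusted p = 0.00047), called in all 16 alternatives.

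miR-497a-5p had 29.9, 15.9 and 4.51 CPM at 6 d, against 24.3, 24.8 and 31.3 CPM at 0 h. It was uneven at 6 d, with 47, 12 and 5 reads, and its log2 fold change of -0.96 was not called (limma adjusted p = 0.22). Without 6 d replicate 1 it was called lower (log2 fold change -1.52, limma adjusted p = 0.044, over 16 alternatives between 0.044 and 0.72). miR-497a-3p had 0 reads in each 6 d library and 1 read over the 0 h libraries and was not tested. miR-497b had 0, 2 and 2 reads at 6 d, below the floor of 3 reads, and 12, 13 and 22 at 0 h. Its log2 fold change was -0.80 (limma adjusted p = 0.26).

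miR-322 showed the same division between its arms. mmu-miR-322-3p had 74.5, 55.6 and 90.2 CPM at 6 d, against 217, 279 and 193 CPM at 0 h. All 6 d libraries lay below all 0 h libraries, and the log2 fold change was -1.64 ± 0.32 (SE, n = 3 each, limma adjusted p = 0.0040). With library totals alone it was -1.18 and not called (adjusted p = 0.091, over 16 alternatives between 0.00045 and 0.091). miR-322-5p, which has the family seed, had 125, 60.9 and 41.5 CPM at 6 d, against 39.2, 42.6 and 53.3 CPM at 0 h. The groups overlapped, and its log2 fold change of 0.60 was not called (95% interval -0.36 to 1.57, limma adjusted p = 0.29).

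Set within each precursor, the balance moved to the 5p strand for miR-195a and miR-322, while no change was called for miR-15a or miR-15b, whose intervals were wide. There were 25.1, 15.5 and 8.59 reads of miR-195a-5p per read of miR-195a-3p at 6 d, against 2.14, 3.10 and 1.503 at 0 h. The log2 ratio, with 1 read added to each arm, rose by 2.72 ± 0.54 (SE, n = 3 each, limma adjusted p = 0.0059) and was called in all 10 alternatives. There were 1.68, 1.10 and 0.460 reads of miR-322-5p per read of miR-322-3p at 6 d, against 0.180, 0.153 and 0.276 at 0 h. The 3p strand was thus the more abundant arm of miR-322 in all 0 h libraries, and the 5p strand in 2 of the 3 libraries at 6 d. That log2 ratio rose by 2.26 ± 0.57 (SE, n = 3 each, limma adjusted p = 0.017), with adjusted p of 0.0502 without 0 h replicate 1 and 0.0510 without 6 d replicate 2, and between 0.0039 and 0.051 over 10 alternatives.

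For miR-15b, whose arms both rose, there were 2.08, 1.64 and 4.34 reads of the 5p strand per read of the 3p strand at 6 d, against 2.38, 5.95 and 2.56 at 0 h. The groups overlapped, and the change in log2 ratio was -0.43 (95% interval -1.71 to 0.84, limma adjusted p = 0.56). For miR-15a the change was -0.39 (95% interval -2.01 to 1.23, limma adjusted p = 0.67), on few 3p reads. The log2 ratio of miR-16-5p to miR-16-1-3p changed by 1.45 (adjusted p = 0.074) and that to miR-16-2-3p by -0.69 (adjusted p = 0.40). The groups of the ratio to miR-16-1-3p did not overlap, and 3 of its 10 alternatives called it. In all, 3 of the 7 ratios of the family were called, 1 of them between the passenger strands of the loci, where 38.7% of all 119 ratios were called, 19.3% higher and 19.3% lower. Without 0 h replicate 1 only 1 of the 7 was called, that of miR-195a.

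**Figure D3:**
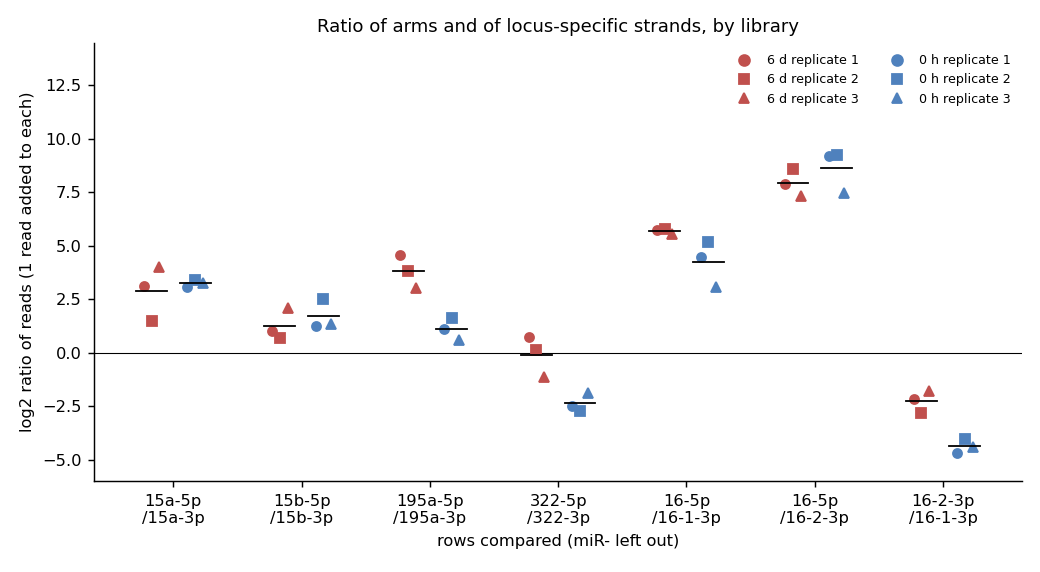
Log2 ratio of reads between the 2 rows named under each position, with 1 read added to each row, 1 point per library (red, 6 d; blue, 0 h) and a line at the mean of 3. For the arms of miR-195a and miR-322 and for miR-16-2-3p over miR-16-1-3p all 6 d points lie above all 0 h points. The same holds for miR-16-5p over miR-16-1-3p, while the points of miR-15a, of miR-15b and of miR-16-5p over miR-16-2-3p overlap.

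miR-16-5p made up a larger part of the seed-carrying strands at 6 d. It held 85.8%, 88.1% and 80.8% of the reads of the 6 5p rows at 6 d, against 72.2%, 75.4% and 48.1% at 0 h. miR-195a-5p held 7.95%, 7.03% and 9.50% at 6 d, against 18.8%, 17.04% and 33.1% at 0 h. The share of miR-16-5p was higher and that of miR-195a-5p lower in all 6 d libraries, each at the smallest exact two-sided permutation p of 0.1 (adjusted p = 0.175 over 7 shares). miR-497a-5p moved likewise, with 0.460% ± 0.213 at 6 d and 2.87% ± 1.85 at 0 h (SD, n = 3 each), at the same exact two-sided permutation p of 0.1 (adjusted p = 0.175), while the shares of miR-15a-5p, miR-15b-5p and miR-322-5p overlapped between the intervals. Much of the size of these differences depended on 0 h replicate 3. Without it the difference of 6 d minus 0 h fell to 11.1 percentage points for miR-16-5p, against 19.7 with it. It was -9.75 against -14.8 for miR-195a-5p, and -1.35 against -2.41 for miR-497a-5p.

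**Figure D4:**
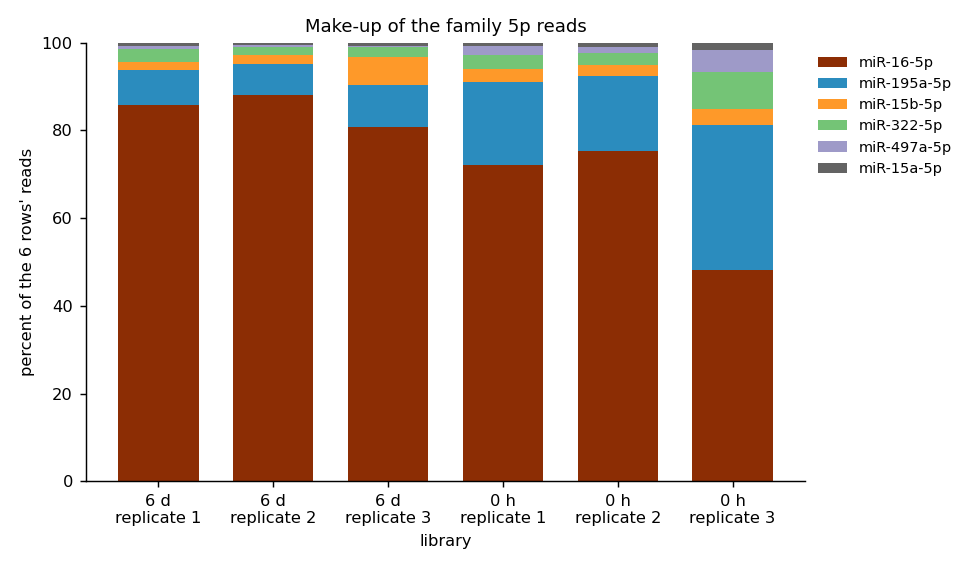
Percent of the reads of the 6 seed-carrying 5p rows that each row holds, 1 bar per library, 6 d on the left and 0 h on the right. miR-16-5p (dark red) fills 80.8% to 88.1% of the 6 d bars and 48.1% to 75.4% of the 0 h bars.

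Differences between members were also tested across the whole table. There were 10.8, 12.5 and 8.51 reads of miR-16-5p per read of miR-195a-5p at 6 d, against 3.85, 4.42 and 1.45 at 0 h. The rise of miR-16-5p exceeded the change of miR-195a-5p by 1.85 on the log2 scale. This difference was called when miR-195a-5p was subtracted from every miRNA (limma adjusted p = 0.015, where 29% of 469 miRNAs were called, 11.7% higher and 17.3% lower) and missed the threshold when miR-16-5p was subtracted instead (adjusted p = 0.054, where 59.1% of 469 were called, 2.35% higher and 56.7% lower). These fits pool the spread over other rows, and the spread of the subtracted miRNA enters each of them. Without 0 h replicate 3 the first of these was also lost (adjusted p = 0.056), as it was without 6 d replicate 2 (adjusted p = 0.057). Relative to miR-16-5p, 1 of the 5 other strands was called, miR-497a-5p, which changed by -2.88 (limma adjusted p = 0.0094), a call that was lost without 6 d replicate 2 (adjusted p = 0.058). The values relative to miR-16-5p were -0.48 for miR-15b-5p (adjusted p = 0.65), -0.92 for miR-15a-5p (0.41) and -1.32 for miR-322-5p (0.20). Relative to miR-195a-5p, miR-15b-5p changed by 1.36 (adjusted p = 0.051), miR-15a-5p by 0.93 (adjusted p = 0.17), miR-322-5p by 0.52 (adjusted p = 0.39) and miR-497a-5p by -1.04 (adjusted p = 0.16).

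By level, in CPM of strands of 21 or 22 bases, the order at 6 d was miR-16-5p, miR-195a-5p (mean 256), miR-15b-5p (89.9), miR-322-5p (75.9), miR-15a-5p (24.3) and miR-497a-5p (16.8). The ranges of miR-15b-5p and miR-322-5p overlapped, as did those of miR-15a-5p and miR-497a-5p. At 0 h it was miR-16-5p, miR-195a-5p (mean 234), miR-322-5p (45.0), miR-15b-5p (32.6), miR-497a-5p (26.8) and miR-15a-5p (10.8). There miR-15b-5p overlapped both miR-322-5p and miR-497a-5p. How evenly the library kit captures these different sequences was not measured.

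miR-322 is encoded with miR-503, miR-351, miR-542, miR-450a and miR-450b, and 2 of their 8 tested rows fell while 0 rose, where 21.9% of all tested miRNAs were called lower and 16% higher. At an unadjusted limma p under 0.05, 3 fell and 0 rose, and edgeR called 2 of 7 lower and 0 higher. miR-351-5p had 54.1, 22.5 and 55.9 CPM at 6 d, against 170, 157 and 169 CPM at 0 h, and its log2 fold change was -1.99 ± 0.39 (SE, n = 3 each, limma adjusted p = 0.0040). miR-503-3p had 16.5, 22.5 and 26.2 CPM at 6 d, against 69.6, 73.7 and 93.4 CPM at 0 h, and its log2 fold change was -1.82 ± 0.34 (SE, n = 3 each, limma adjusted p = 0.0031). Both rows were lower in each 6 d library, like miR-322-3p. Of the others above 10 CPM, miR-450a-5p had 31.8, 18.5 and 15.3 CPM at 6 d, against 37.7, 32.9 and 52.7 CPM at 0 h. Its groups did not overlap either, but its log2 fold change of -0.92 was not called (limma adjusted p = 0.094). Of the 8 rows 3 had groups that did not overlap, where 50.6% of all tested miRNAs did, 30.9% lower. The counts of called and of non-overlapping rows are thus near or below the background. miR-542-3p changed by -1.49 (limma adjusted p = 0.26). miR-503-5p, whose seed AGCAGCG differs from the family's in its last base, had 5.05 ± 3.63 CPM at 6 d and 9.16 ± 5.04 at 0 h (SD, n = 3 each, limma adjusted p = 0.28). The log2 ratio of miR-503-5p to miR-503-3p changed by 1.02 (95% interval -0.80 to 2.84, limma adjusted p = 0.34), which was not past the threshold. The median log2 fold change was -0.91 over the 8 rows and -0.33 over all tested miRNAs.

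**Figure D5:**
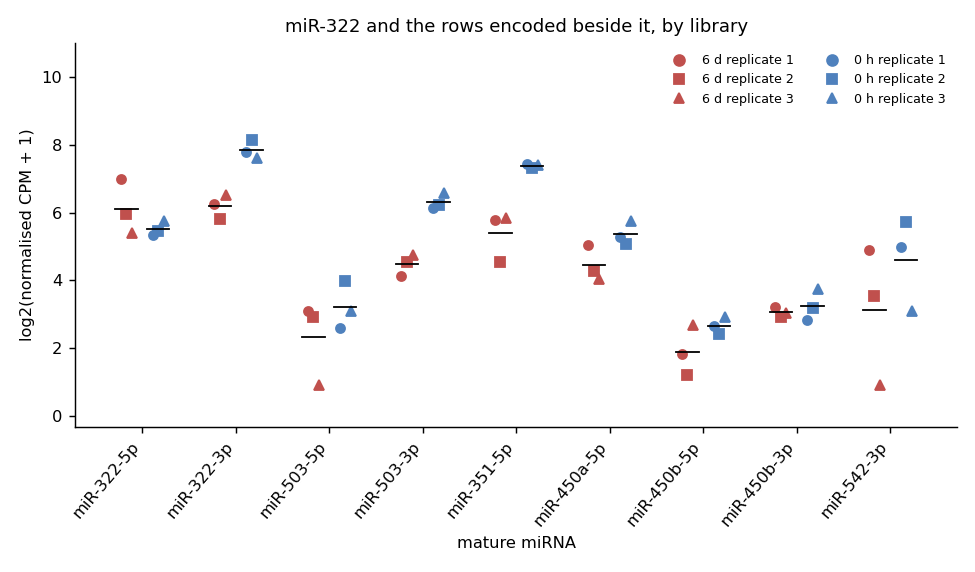
Level of miR-322 and of 7 of the 8 tested rows encoded beside it (miR-450a-1-3p, at 1.08 CPM at 6 d and 0.770 at 0 h, is left out), on the log2(normalised CPM + 1) scale, 1 point per library (red, 6 d; blue, 0 h) and a line at the mean of 3. The 6 d points of miR-322-3p, miR-503-3p, miR-351-5p and miR-450a-5p all lie below their 0 h points, and those of miR-322-5p reach above theirs.

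Since red blood cells are rich in miR-16, the erythroid rows are set beside it. miR-451a, the main erythroid miRNA, had 66865, 95485 and 45135 CPM at 6 d, against 13938, 15096 and 11544 CPM at 0 h (log2 fold change 2.30 ± 0.35, SE, limma adjusted p = 0.0011). miR-486b-5p and miR-486a-5p, whose sequences are alike, were not called (-0.27 each, limma adjusted p = 0.50 and 0.49). Their reads were nearly equal in each library, as with 49338 and 49286 in 0 h replicate 1. The same reads may therefore stand in both rows. Of the 7 erythroid rows 1 rose and 2 fell, miR-486a-3p and miR-486b-3p, and miR-144-5p changed by 0.44 (limma adjusted p = 0.44). Over all 470 tested miRNAs 16% were called higher and 21.9% lower, so these counts are near the background. The 7 rows summed to between 70345 and 114824 CPM at 6 d and between 34526 and 45348 at 0 h, and none was at 0. These sums include both miR-486 5p rows and so may count the same reads in each. The part of the erythroid rows in the rise of miR-16-5p was not tested. Relative to miR-16-5p, miR-451a changed by 0.37 (95% interval -1.23 to 1.97, limma adjusted p = 0.69).

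Marker rows of other cells are given beside a background of 37.9% of all tested miRNAs called by limma and 43% by edgeR. The 3 epithelial rows summed to between 997 and 1942 CPM at 6 d and between 21.2 and 60.9 at 0 h, and all 3 rose. The liver miR-122-5p had 2086 to 23460 CPM at 6 d and 668 to 1406 at 0 h, and rose. The endothelial rows summed to between 25279 and 35077 CPM at 6 d and between 56921 and 88648 at 0 h, with 1 of 2 called lower. Of 5 leukocyte and 2 smooth muscle rows 0 were called with limma, while 3 leukocyte rows and 0 smooth muscle rows had an unadjusted p under 0.05. edgeR called 2 leukocyte rows higher and 0 smooth muscle rows. Leukocyte rows summed to between 655 and 1164 CPM at 6 d and between 471 and 627 at 0 h, and smooth muscle rows to between 27916 and 90469 at 6 d and between 75146 and 79578 at 0 h. No marker row was at 0 in all libraries, and their part in the family's changes was not tested.

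Over the 6 libraries, the 3 miRNAs whose level was most like that of miR-16-5p, among 133 miRNAs with a mean of at least 100 CPM, were miR-140-3p, miR-7a-5p and miR-652-3p. Pearson's r on the log2(CPM + 1) scale was 0.958, 0.957 and 0.956 for these, against 0.882 for miR-451a, 0.825 for miR-15a-5p, 0.806 for miR-15b-5p, 0.575 for miR-322-5p, 0.552 for miR-195a-5p and -0.209 for miR-497a-5p. The rows most like miR-195a-5p were miR-1a-3p (r = 0.928), the main heart miRNA, miR-107-3p (0.919) and miR-340-5p (0.885). These values describe 6 points that share libraries, scale and the split between the intervals.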

How the data were processed

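Small RNA libraries of mouse myocardium were made, 3 at 6 d and 3 at 0 h, from Trizol RNA with a NEBNext kit, per the labels' protocols. The submitters' processing notes name STAR 2.5.3a, cutadapt 2.8, Trimmomatic 0.39 and FastQC, with no role for any. The sources used here do not give the counting tool, annotation or build. Raw read counts stand in what the authors deposited for 0 h replicate 1, while the other 5 deposited files hold log2(x + 1) values with 3 decimals, x being scaled reads. Of 3110 nonzero values 2692 were fine enough to test (rounding under 0.5 read), and all 2692 were whole multiples of 1 step per library within rounding (0.0005), so reads were recovered by dividing by the step. The scale of 0 h replicate 1 was derived so that the 6 library factors multiply to 1, which the authors do not state. In each file 1604 rows without a name were left out. No pair of replicates held identical values, and chi-square per degree of freedom was 216 or more.

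limma 3.58.1 (trended prior, robust) was run on log2(CPM + 1) over the 470 miRNAs with at least 1 CPM in at least 3 libraries, with Benjamini-Hochberg adjustment at 0.05. The 514 miRNAs left out held 0.0114% of the reads. The log2(CPM + 1) scale understates changes of low miRNAs. Ratios of arms and differences between members were also fitted with limma across the whole table, and shares with exact permutation tests. The exact tests on 10 ratios of reads between rows were added after their values were seen, while the limma fits of ratios and differences were planned. Alternatives used edgeR 4.0.16 and DESeq2 1.42.0 on the reads, other scalings, pseudocounts of 0.5 and 5, no filter, thinning, a replicate block and each library left out. The steps were tested on simulated data. Named miRNAs are all family rows (each library's value from a mean of 10 CPM), neighbours of miR-322 from a mean of 10 CPM, the 3 most abundant erythroid rows and the 3 rows most alike. miR-503-5p, miR-450a-1-3p, miR-144-5p, miR-486a-3p and miR-486b-3p were added after their values were seen. Members and lists were chosen with earlier results of these data known.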

Additional observations from a re-analysis of the deposited data

How the results depend on the processing

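The number of family rows called, 6, ranged over 5 to 8 in all 16 alternatives, and 178 miRNAs in all were called with all libraries. With 1 library left out the count over all miRNAs ran between 114 (without 0 h replicate 1) and 179, and the 3 called ratios of the family between 1 and 4. With 1 library left out, 0 to 2 of the 5 other 5p members differed from miR-16-5p, where 1 did with all libraries, and 0 to 2 from miR-195a-5p, where 1 did. With the replicate block 3 members differed from miR-16-5p and 2 from miR-195a-5p. Libraries that share a replicate number had deviations from their group means that correlated by 0.068, 0.064 and 0.27. Not all exceed 0.1, so the pairing was not used.

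Signs changed in 3 uncalled values: the log2 fold change of miR-195a-5p was -0.18 without 6 d replicate 1 and 0.34 without 6 d replicate 3, the log2 ratio of miR-16-5p to miR-16-2-3p was 0.48 after thinning, and the difference in the share of miR-15b-5p was -1.07 percentage points without 6 d replicate 3 and 1.14 without 6 d replicate 1. What caused these was not tested. The alternative that takes all rows with the family seed gives the same 6 rows and no other value. Depth limits miR-16-2-3p, miR-15a-3p and both miR-497a-3p and miR-497b.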
